A study of Mus musculus with 24 samples.

Results

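EO771 cells with the chemokine receptor CCR7, sorted for podoplanin (PDPN), were compared with PDPN-sorted EO771 cells that carry the vector control without CCR7. The comparison holds 8 of the 24 libraries of the series, 4 of CCR7-PDPN and 4 of X2-PDPN cells, all from batch 2, and 13314 genes of that batch were tested, while 601 others had too few counts. The libraries were chosen by their labels and not by any measured value. EO771 is a mammary carcinoma line from a spontaneous tumour of C57BL/6 mice, and all groups were grown in RPMI-1640 with foetal bovine serum, with G418 used to select transduced cells. CCR7-PDPN cells had been transduced with a pLNCX2 retrovirus bearing mouse Ccr7 cDNA and tdTomato, sorted by flow cytometry for both proteins, and sorted again for PDPN that had come up by itself. X2-PDPN cells descend from the X2 vector control and were likewise sorted for PDPN, without CCR7. The paper also stained X2 tumours for tdTomato and compared tdTomato levels across its cell derivatives. In the paper, PDPN-positive cells were much rarer in X2 than in CCR7-transduced cells before the sort, and made up a smaller share after it. The X2 control was sequenced in both batches, and CCR7-transduced cells sorted for the absence of PDPN (CCR7) in batch 1. The test was fitted on the 12 libraries of batch 2, so that the 4 X2 libraries added to its estimate of the spread. No clone was picked, each group is a single population, and its 4 libraries are technical replicates. P-values therefore measure the spread between libraries, and the effect of CCR7 cannot be told apart from any other way in which these populations had come to differ.

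CCR7 is a G-protein-coupled receptor that draws dendritic cells and naive T cells towards its ligands CCL19 and CCL21 in lymph vessels and nodes, and tumour cells that express it can follow the same route. PDPN is a mucin-type membrane glycoprotein of lymphatic endothelium, stromal fibroblasts and some carcinoma cells, which binds ezrin and moesin below the membrane and engages the platelet receptor CLEC-2. With PDPN on both sides, the contrast asks what goes with CCR7 among cells sorted for PDPN after their transduction.

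Library totals of the 8 libraries lay between 22788542 and 35721027 counts, and their scaling factors between 0.987 and 1.01. Replicates were not copies of each other, since the chi-square of their counts per degree of freedom was 3.15 or more in each of 12 replicate pairs. Mitochondrial genes took 0.449% to 0.843% of the counts in CCR7-PDPN and 0.711% to 1.05% in X2-PDPN libraries. Levels below are TPM, read counts scaled for gene length and library depth, and fold changes are log2 values of CCR7-PDPN minus X2-PDPN with their standard errors (SE).

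The transduced gene and the sorted gene were at the levels the labels call for in all 8 libraries. Ccr7 (ENSMUSG00000037944, chr11:99144196-99155077, GRCm38) stood at 6325, 5862, 5949 and 5509.7 TPM in CCR7-PDPN cells, where it ranked 6 among all genes, and at 1.81, 0.889, 1.48 and 0.837 TPM in X2-PDPN cells. The groups were separated by a log2 difference of 12.23 ± 0.10 (SE; edgeR quasi-likelihood test, Benjamini-Hochberg adjusted p = 2.0e-18). X2-PDPN libraries still held 12 to 29 Ccr7 counts each. Pdpn (ENSMUSG00000028583, chr4:143267431-143299564) was at 51.5, 48.2, 48.7 and 51.0 TPM with CCR7 and at 53.0, 52.6, 52.7 and 53.1 TPM without it. The log2 difference was -0.06 ± 0.05 (SE), which did not pass (adjusted p = 0.3). X2 cells had 0.330 ± 0.161 TPM (SD, n = 4), far below both PDPN-positive populations.

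CCR7-PDPN cells had 367 of the 13314 genes higher (2.76%) and 852 lower (6.4%). This required a log2 change beyond 1 with an adjusted p under 0.05, the rule behind every rise and fall named here. The changes were unequally spread over the genome, with a block of chromosome 8 raised as a whole, whose tested genes start between 104101625 and 123996318. Inside that block 169 of 221 genes rose (76.5%) and 5 fell (2.26%), and it held 46.0% of all rises. Outside it, 198 of 13093 genes rose (1.51%) and 847 fell (6.47%), so that 81.1% of the changes outside went down. The median log2 change outside was -0.00, and by adjusted p alone the directions were close, with 4152 genes higher (31.2%) and 4259 lower (32.0%) among all tested genes. The libraries of the groups did not overlap in 3586 higher (26.9%) and 3707 lower genes (27.8%). Among the falls outside, 287 exceeded 2 and 128 exceeded 3 on the log2 scale, against 40 and 19 of the rises. Most changed genes were weakly expressed, as the group with the higher level had a median of 2.67 TPM for the rises and 2.30 TPM for the falls. Of the 847 falls 243 had a mean under 1 TPM in both groups, and 86.0% were protein-coding genes, against 65.2% of the rises.

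**Figure D1:**
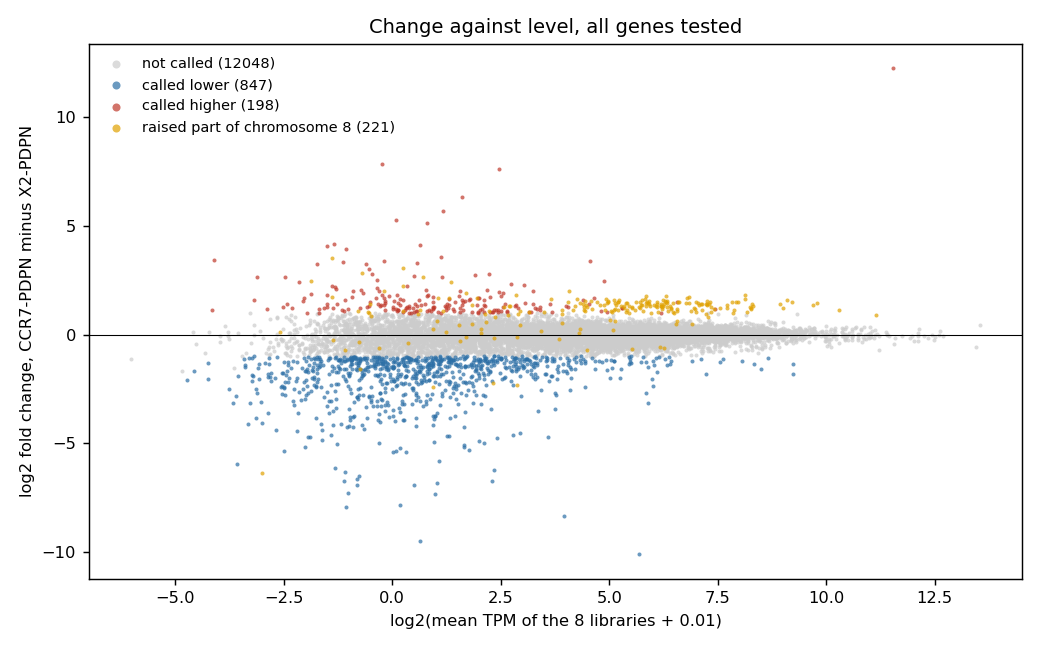
Log2 fold change (CCR7-PDPN minus X2-PDPN) against log2 of the mean TPM of the 8 libraries plus 0.01, one point per tested gene. Most of the 221 genes of the raised part of chromosome 8 form a band above 0, the 847 falls elsewhere outnumber the 198 rises, and the topmost point, at 12.23, is Ccr7.

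The raised block was reported on its own because its genes moved together. Its 221 tested genes had a median log2 change of 1.28, with quartiles of 1.02 and 1.46, and 202 of them lay above 0. The median was 1.22 over the first 2 Mb (53 genes) and 1.22 over the last 2 Mb (48 genes), and 0.01 over the 2 Mb beyond the far edge (20 genes). The rest of chromosome 8 (519 genes) had a median of -0.04. Genes of the block made up 2.92% of all TPM in CCR7-PDPN and 1.27% in X2-PDPN cells. The same block had a median of 0.95 for CCR7 against X2 in batch 1, 1.02 for CCR7-PDPN against X2 and -0.18 for X2-PDPN against X2.

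Among genes of the block whose log2 CPM (depth-scaled read counts, with no length correction) averaged 1 or more, the largest rises were those of Foxl1, the non-coding A130014A01Rik, Mvd and Wwp2. Mvd encodes mevalonate diphosphate decarboxylase of cholesterol synthesis and stood at 442, 438, 414 and 427 TPM with CCR7 against 126, 126, 122 and 125 TPM without. Its difference of 1.81 ± 0.03 (SE; adjusted p = 5.6e-39) exceeded the median of its block, and X2 cells had 73.0 TPM. Foxl1, a forkhead transcription factor, was at 26.6 ± 1.74 against 6.85 ± 0.896 TPM (SD, n = 4 each; log2 1.98), the ubiquitin ligase gene Wwp2 at 88.7 ± 0.764 against 26.4 ± 0.765 TPM (log2 1.78), and A130014A01Rik rose by 1.82. Several much-studied genes lie in the block. The amino acid transporter gene Slc7a5 rose by 1.15 on the log2 scale from 791 to 1721 TPM, the replication licensing factor Cdt1 by 1.19, the immunoproteasome subunit Psmb10 by 1.3 and the cytokine Il34 by 1.54.

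By the same limit on level, the largest of the 5 falls in the block were those of Dpep1 and Gm4316, neighbours near its far edge. Dpep1, a membrane dipeptidase, read 2.16, 1.67, 2.55 and 3.30 TPM in CCR7-PDPN and 11.0, 12.0, 12.9 and 12.8 TPM in X2-PDPN cells, with no overlap (log2 -2.30 ± 0.13 SE), and the non-coding Gm4316 fell by 2.24. X2 cells held both near the lower level, 2.21 TPM for Dpep1 and 1.97 TPM for Gm4316.

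Chromosome 14 was shifted the other way. Its 436 tested genes had a median of -0.54, 93.1% of them lay below 0, and 70 fell (16.1%) while 3 rose. Among 10 Mb windows with at least 20 genes, the 4 lowest medians of the genome were on this chromosome, from -0.62 to -0.54. The next lowest was that of 10 to 20 Mb on chromosome 8, at -0.51 (40 genes). For CCR7 against X2 in batch 1 the chromosome's median was -0.45, and for X2-PDPN against X2 it was -0.04. Milder medians were -0.19 on chromosome 15, -0.10 on chromosome 3, 0.17 on chromosome 9 and 0.14 on chromosome 12. On chromosome 3, 71 of 654 genes fell (10.9%) and 9 rose. The median of chromosome 15 was -0.01 for CCR7 against X2 in batch 1 and 0.21 for X2-PDPN against X2. Without chromosomes 8 and 14 the falls numbered 741 and the rises 188.

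**Figure D2:**
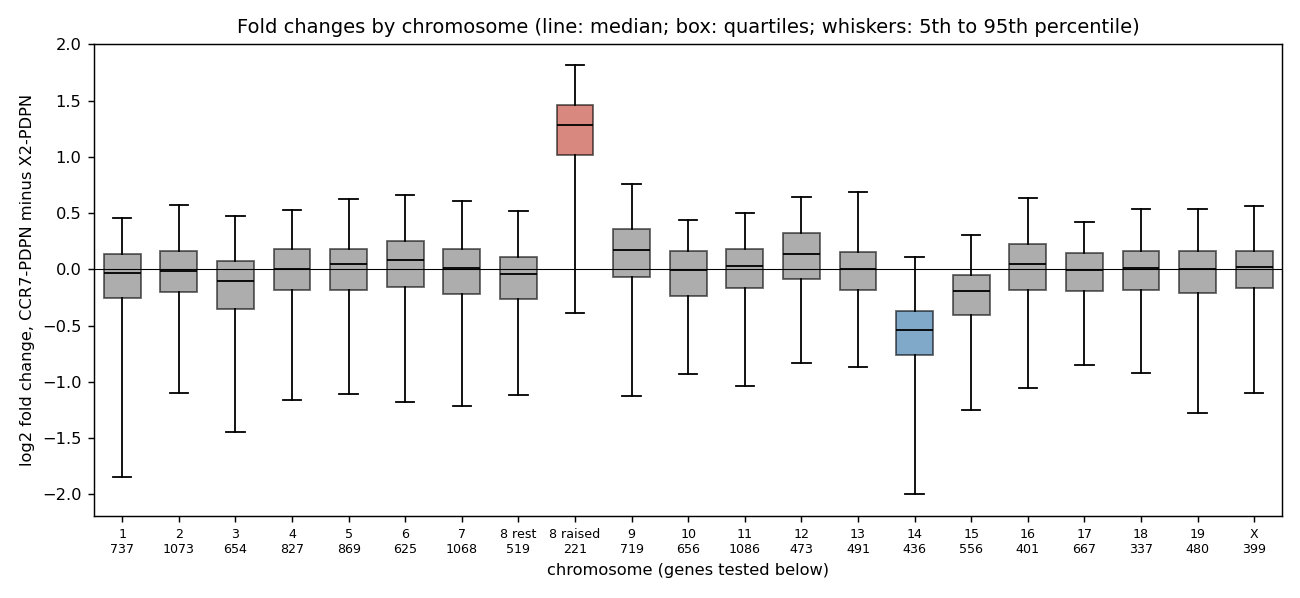
Log2 fold changes (CCR7-PDPN minus X2-PDPN) of the tested genes by chromosome, with the raised part of chromosome 8 drawn on its own, as medians, quartiles and 5th to 95th percentiles. The raised part has a median of 1.28 and chromosome 14 one of -0.54.

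Outside the block, among genes averaging 1 or more in log2 CPM, the largest rise after Ccr7 was that of Col6a3 (chr1:90765923-90843971), which encodes a chain of the microfibrillar collagen VI. It read 43.7, 43.0, 46.9 and 37.8 TPM in CCR7-PDPN and 4.20, 3.65, 4.39 and 4.69 TPM in X2-PDPN cells, with no overlap and a log2 difference of 3.38 ± 0.07 (SE; adjusted p = 1.8e-15). X2 cells had 0.616 ± 0.0798 TPM and CCR7 cells of batch 1 had 4.86 TPM. Erc2 (chr14:27622428-28478537), a scaffold protein of the presynaptic active zone, was low but well separated, at 1.67, 1.49, 1.57 and 1.58 TPM against 0.0634, 0.149, 0.301 and 0.0993 TPM (log2 3.37 ± 0.20 SE). X2 cells held 1.03 ± 0.139 TPM, nearer to the CCR7-PDPN level, and X2-PDPN cells stood low. Erc2 rose although it lies on chromosome 14.

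The other large rises included enzymes and contractile genes. Acot11, an acyl-CoA thioesterase, was at 8.64, 8.47, 7.72 and 7.96 TPM against 1.43, 1.18, 0.968 and 1.21 TPM, without overlap (log2 2.80 ± 0.10 SE). Nrap, an anchoring protein of striated muscle, rose by 2.73, the cytochrome P450 gene Cyp2j6 by 2.33 and the ubiquitin ligase gene Trim2 by 2.06. Mylk encodes myosin light chain kinase, which switches on contraction of smooth muscle and of non-muscle myosin, and read 14.02, 15.9, 15.7 and 14.3 TPM against 3.94, 3.76, 3.78 and 3.99 TPM (log2 1.98 ± 0.05 SE). Psd2 (log2 1.90), Tmem40 (1.78), Bnip5 (1.78), Gm43800 (1.67) and the antisense Gm20632 (1.66) completed the 12 largest at this level.

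Among abundant transcripts rises were smaller. The interferon-inducible Ifi27 was at 239 ± 7.94 TPM against 109 ± 7.22 TPM (log2 1.16), with X2 cells at 209 TPM. The ribosome biogenesis gene Urb2 was at 139 against 50.6 TPM, the zinc transporter Slc39a10 at 54.5 against 23.9 TPM and the metabolic hormone Fgf21 at 54.3 ± 7.45 against 23.8 ± 1.96 TPM. Urb2 starts at 124021508 on chromosome 8, just past the border of the raised block. The glycosyltransferase Galnt3 was at 97.4 against 49.3 TPM (log2 1.01) and fell short of the fold limit without any one of CCR7-PDPN library 4 (0.99), X2-PDPN library 2 (1.00) and X2-PDPN library 3 (0.99).

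**Figure D3:**
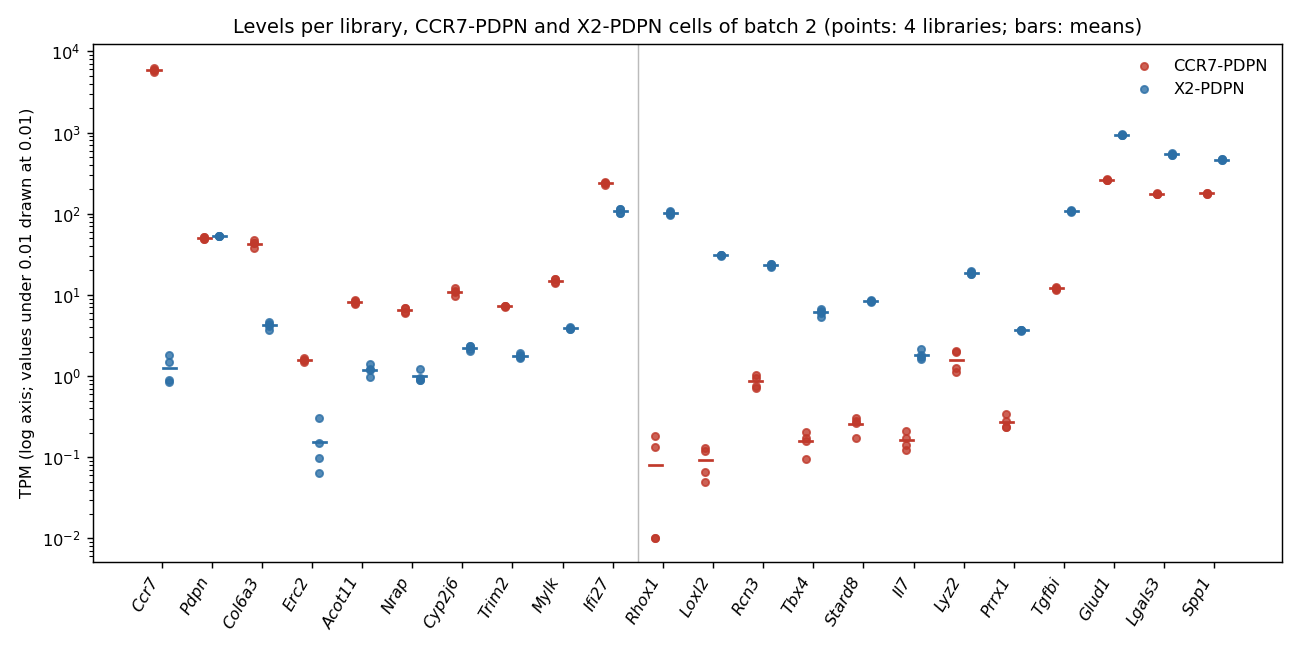
TPM of 22 named genes in each of the 4 CCR7-PDPN and 4 X2-PDPN libraries on a log axis, with bars for the means and values under 0.01 drawn at 0.01. Pdpn is at nearly one level in both groups, near 50 TPM, and the groups of the other 21 genes stand apart.

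Falls were more numerous. Loxl2 (chr14:69609068-69695834), a lysyl oxidase-like enzyme that crosslinks collagen and elastin, was at 31.3, 31.0, 31.0 and 30.4 TPM in X2-PDPN cells and at 0.120, 0.132, 0.0652 and 0.0498 TPM in CCR7-PDPN cells (log2 -8.34 ± 0.11 SE; adjusted p = 1.0e-42). The groups were far apart, and of the other genes outside the block none but the near-absent Rhox1 and Prelp, described below, fell further. Rcn3, a calcium-binding protein of the endoplasmic reticulum that takes part in collagen production, fell from 23.2 ± 1.14 to 0.861 ± 0.157 TPM (SD, n = 4 each; log2 -4.72), with X2 cells at 3.75 TPM. Stard8, which encodes a START domain protein, fell by 5.00, the phosphodiesterase gene Pde4b by 4.13, Ubash3b by 3.75 and the scaffold gene Shank2 by 3.57. The host transcript Mir100hg fell by 3.37.

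Tbx4 and Prrx1, transcription factors of limb mesenchyme, fell to traces. Tbx4 (chr11:85886422-85916097) was at 0.0955, 0.175, 0.207 and 0.158 TPM with CCR7 and at 6.31, 5.99, 6.75 and 5.35 TPM without (log2 -5.16 ± 0.20 SE). X2 cells had 6.26 ± 0.415 TPM and CCR7 cells of batch 1 had 1.47 TPM. Prrx1 stood at 0.272 ± 0.0501 against 3.68 ± 0.0441 TPM (log2 -3.74). Ly6a, the stem cell antigen Sca-1, fell from 24.8 ± 3.28 to 2.21 ± 0.575 TPM (log2 -3.43), and Lyz2, lysozyme of myeloid cells, from 18.8 ± 0.583 to 1.60 ± 0.486 TPM (log2 -3.51).

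Il7 (chr3:7569994-7613760), a growth factor for lymphocytes, read 0.172, 0.210, 0.125 and 0.143 TPM in CCR7-PDPN and 1.72, 1.64, 2.16 and 1.83 TPM in X2-PDPN cells (log2 -3.45 ± 0.23 SE; adjusted p = 1.6e-17). It was at 1.64 ± 0.265 TPM in X2 cells and at 1.74 TPM in CCR7 cells of batch 1, where its difference from X2 was -0.03 on the log2 scale (adjusted p = 0.86). Low Il7 was seen in CCR7-PDPN libraries and not in the other populations.

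Some falls had another shape, with X2-PDPN cells high and X2 cells low. Tgfbi, a secreted matrix protein induced by TGF-beta, was at 111, 107, 104.4 and 108 TPM in X2-PDPN, at 11.9, 12.3, 12.5 and 11.5 TPM in CCR7-PDPN and at 14.1 ± 0.762 TPM in X2 cells (log2 -3.13 ± 0.04 SE). Col9a1, a cartilage collagen chain, was at 8.90 ± 0.308 TPM in X2-PDPN, 0.831 ± 0.277 TPM in CCR7-PDPN and 0.561 ± 0.0791 TPM in X2 cells (log2 -3.41).

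Abundant genes fell by smaller factors. Glud1 on chromosome 14, glutamate dehydrogenase of mitochondria, was at 259, 260.0, 266 and 262 TPM against 953, 924, 946 and 936 TPM (log2 -1.82 ± 0.02 SE; adjusted p = 1.0e-42). Lgals3 (galectin-3, chromosome 14) fell from 541 ± 15.2 to 177 ± 4.15 TPM, Spp1 (osteopontin) from 465 ± 10.8 to 178 ± 1.64 TPM and the metallothionein gene Mt2 from 875 ± 33.1 to 335 ± 23.8 TPM. The growth factor binding protein gene Igfbp6 went from 370.4 ± 7.91 to 159 ± 8.79 TPM. In X2 cells these genes ranged from 317 TPM for Igfbp6 to 969 TPM for Glud1, each except Spp1 nearer in TPM to its X2-PDPN level.

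Some genes were near absence in 1 group, with at most 3 counts in each of its libraries and at least 30 in every library of the other. There were 11 such genes low in CCR7-PDPN and 2 low in X2-PDPN cells. Rhox1 (chrX:37213804-37222258), a homeobox gene of the reproductive Rhox cluster, had 691 to 833 counts per X2-PDPN library and 2 counts in all 4 CCR7-PDPN libraries together. In TPM these were 100, 97.6, 106 and 108 against 0.184, 0, 0.133 and 0, and the ratio of the summed rates was 1373 (95% exact interval 379.7 to 11341, counting error only). X2 cells had 111 TPM and CCR7 cells of batch 1 had 0.0328 TPM. Magea10, of a cancer-testis antigen family and also on the X chromosome, had 116 to 181 counts against at most 3 (ratio 79.4, 38.3 to 198). Nedd9, an adaptor of focal adhesions, had 131 to 162 counts against at most 2 (ratio 135, 52.5 to 497), and X2 cells had 0.0553 TPM of it. The growth factor binding protein gene Igfbp5 (ratio 43.9, 23.6 to 92.0) and Xkr5 (ratio 126, 48.8 to 462) were also near absent in CCR7-PDPN cells. X2 cells had 0.110 TPM of Igfbp5 and 2.76 TPM of Xkr5. Prelp, a small leucine-rich proteoglycan, had no count in any CCR7-PDPN library and 75 to 111 in each X2-PDPN library, so it was at least 27.9-fold lower against a floor of 3 counts per library. Of the opposite direction were Tmsb4x (93 to 137 counts against at most 1, ratio 245, 67.5 to 2032) and Xlr4c (65 to 88 against at most 3, ratio 53.8, 24.4 to 148), both of which have near-identical copies elsewhere in the genome, so that their counts are uncertain.

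The start regions of Rhox1, with its near-complete loss, and of Col6a3, with its large rise, are shown with their CG dinucleotides, the sites of DNA methylation. The windows are RefSeq sequences of GRCm38.p6 from 250 bases before to 50 bases after the start site, on the minus strand in both cases (chrX:37222209-37222508 for Rhox1 and chr1:90843922-90844221 for Col6a3), with each CG in capitals.
Rhox1: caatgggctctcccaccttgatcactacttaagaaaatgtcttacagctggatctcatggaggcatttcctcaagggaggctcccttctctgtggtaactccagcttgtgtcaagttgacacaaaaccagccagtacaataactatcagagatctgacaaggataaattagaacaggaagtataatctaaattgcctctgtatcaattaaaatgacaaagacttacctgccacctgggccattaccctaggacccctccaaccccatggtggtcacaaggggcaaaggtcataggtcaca
Col6a3: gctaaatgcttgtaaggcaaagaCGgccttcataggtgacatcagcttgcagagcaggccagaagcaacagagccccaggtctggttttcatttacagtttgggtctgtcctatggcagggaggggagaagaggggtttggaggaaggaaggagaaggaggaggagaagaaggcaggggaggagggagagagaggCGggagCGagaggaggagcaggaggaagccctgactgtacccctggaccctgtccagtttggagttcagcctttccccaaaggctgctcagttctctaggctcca
The Rhox1 window holds 0 CG, as do 5.43% of the 32851 windows in the RefSeq table, and that of Col6a3 holds 3, where the table's median is 7 and 31.4% of windows hold at most 3. Methylation was not measured.

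Genes were also grouped into 42 lists by function, of which 41 had at least 5 tested members. Outside the raised block, falls outnumbered rises in 33 of these lists and rises outnumbered falls in 0, while the median was below 0 in 36 (all genes outside: -0.00). The shares over all genes outside, 1.51% for rises and 6.47% for falls, stand behind each count below.

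**Figure D4:**
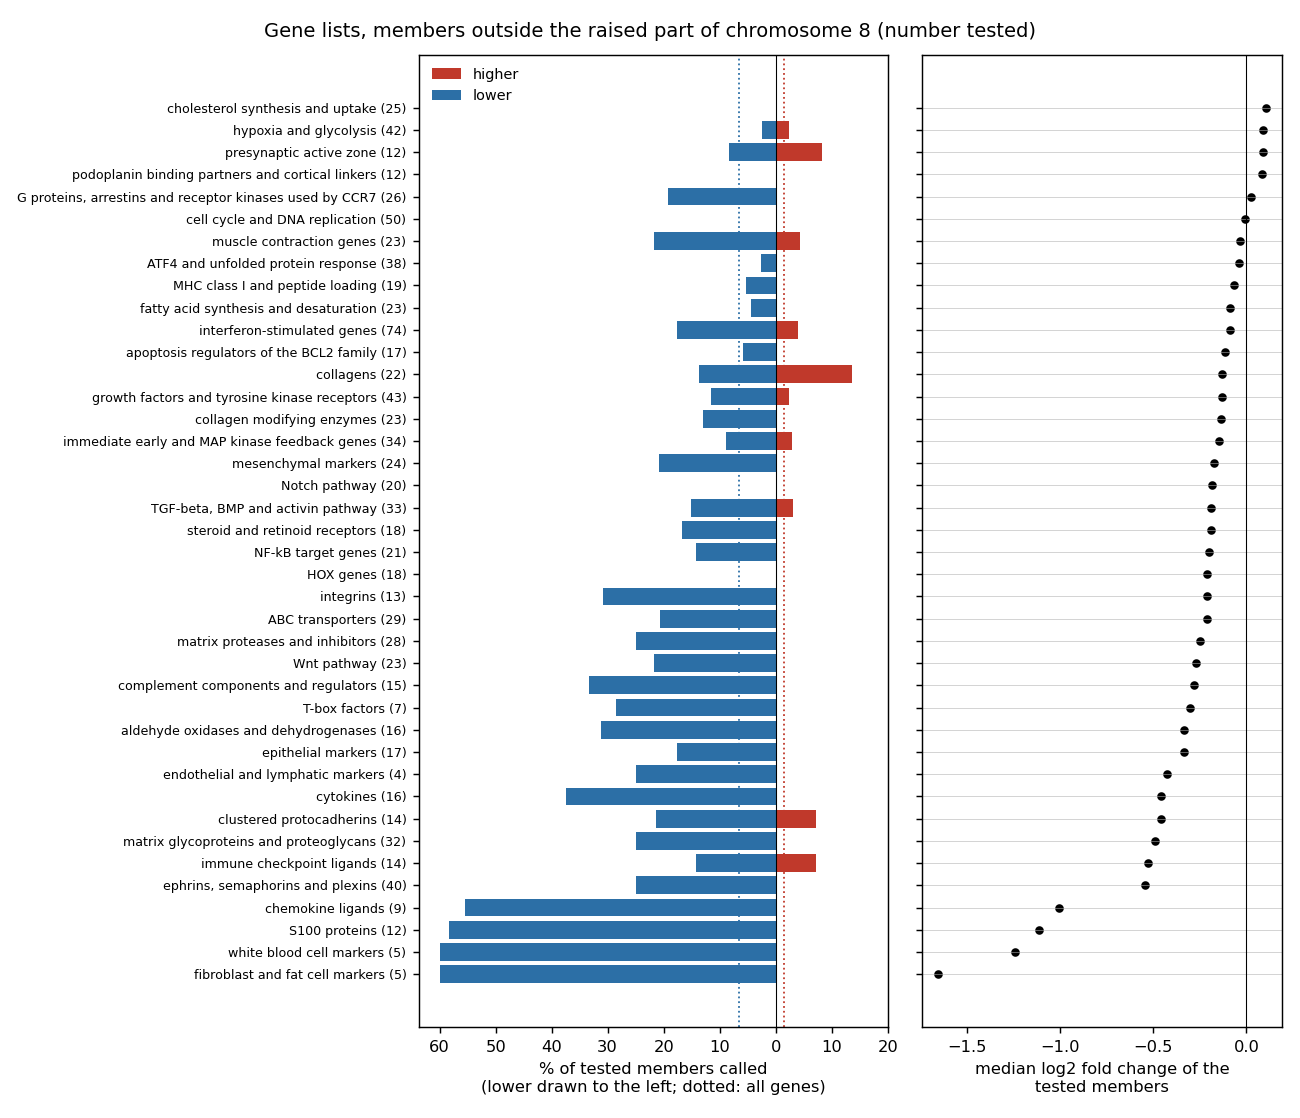
Left, share of the tested members outside the raised block, for each of 40 lists, that rose (right of 0) or fell (left of 0), with dotted lines at the shares of all genes, 1.51% and 6.47%, and right, the median log2 fold change of the same members. S100 proteins, chemokine ligands and 2 short marker lists have the lowest medians, and cholesterol synthesis has the highest at 0.11.

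Genes of the extracellular matrix fell in several lists, while collagens went both ways. Of 22 tested collagens 3 rose and 3 fell (median -0.13), where 1.51% of all genes outside the block rose. Of the collagen rises only Col6a3 is named here. Beside Col6a3 and Col9a1, the basement membrane collagen gene Col15a1 had at most 1 count per CCR7-PDPN library and 40 to 76 per X2-PDPN library (ratio 112, 30.6 to 928). The fibrillar chain Col1a1 fell from 3.08 ± 0.387 to 0.959 ± 0.0343 TPM (log2 -1.66). X2 cells had 1.25 TPM of Col15a1 and 1.19 TPM of Col1a1. Of 32 matrix glycoproteins and proteoglycans 8 fell and 0 rose (median -0.49), among them Prelp, Igfbp5, Matn4 (log2 -2.25) and the antiangiogenic Thbs2 (2.20 ± 0.0757 to 0.0544 ± 0.0282 TPM, log2 -5.21). Enzymes that modify or crosslink collagen fell in 3 of 23, among them Loxl2 and the prolyl hydroxylase subunit P4ha3 (log2 -4.11). Of 28 matrix proteases and inhibitors 7 fell (median -0.25), including Mmp3 (stromelysin-1, log2 -2.44), the gelatinase Mmp2 (-1.98) and tissue plasminogen activator Plat (9.67 ± 0.906 to 2.46 ± 0.271 TPM, -1.95). Integrin subunits with a numbered name fell in 4 of 13, Itgb4 (-2.14), Itgb3 (-1.77), Itga1 (-1.47) and Itgb7 (-1.40).

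Of 12 tested genes named S100, 11 of them small calcium-binding proteins encoded on chromosome 3 and 1 a binding protein on chromosome 4, 7 fell and 0 rose (median -1.12). S100a8, a calprotectin subunit, was at 12.8, 12.8, 16.5 and 10.9 TPM in X2-PDPN and at 0.702, 0.342, 0.339 and 0.776 TPM in CCR7-PDPN cells, without overlap (log2 -4.59 ± 0.32 SE; adjusted p = 8.3e-17). S100a14 fell by 3.21 and S100a16 by 3.10. S100a4, a marker of motile mesenchymal cells and the most abundant of those that fell, went from 161, 169, 167 and 173 TPM to 70.9, 78.1, 67.4 and 69.4 TPM (log2 -1.20). X2 cells were lower still, at 40.5 ± 1.75 TPM.

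Of 9 tested chemokine ligands 5 fell and 0 rose (median -1.01). Cxcl10, a ligand of CXCR3 on T cells, read 9.53, 11.6, 11.0 and 11.1 TPM in X2-PDPN and 2.67, 2.74, 1.93 and 2.33 TPM in CCR7-PDPN cells (log2 -2.14 ± 0.12 SE). Its mean in X2 cells was 4.11 TPM. The membrane-bound Cx3cl1 fell by 1.73, and the monocyte attractants Ccl7 by 1.69 and Ccl2 by 1.12, the latter from 192 ± 9.20 to 86.7 ± 6.09 TPM. Of 17 cytokines 6 fell and 1 rose, the rise being Il34 of the raised block. Il7, Spp1 and Lif (log2 -1.29) had the largest falls among them. Of 15 complement genes 5 fell and 0 rose, among them Hc (complement C5, log2 -4.61), C1s1 (-1.99) and C3 (62.6 ± 2.53 to 24.4 ± 1.17 TPM, -1.33). Of the ligands of CCR7 and the other chemokine receptors only Ackr3, the atypical receptor for CXCL12, passed the filter on low counts, and it fell from 13.2 ± 0.813 to 5.18 ± 0.818 TPM (log2 -1.33).

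Interferon-stimulated genes changed in both directions, with 13 falls and 3 rises among 74 tested (median -0.09). The largest falls were those of Ifit3, of a family that restricts viral RNA (log2 -2.32, with 5 to 12 counts in X2-PDPN and 1 to 2 in CCR7-PDPN libraries and a near-identical neighbouring gene), of Cxcl10 and of the nucleic acid sensor Zbp1 (log2 -2.06). The largest rise was that of Oas1c of the oligoadenylate synthetases (1.32 ± 0.219 against 0.411 ± 0.136 TPM, log2 1.69), which has similar neighbouring genes and is uncertain. For CCR7 against X2 in batch 1 the list's median was -0.51, with 16 falls and 0 rises among 73 tested. Interferon-responsive genes are often bound at an interferon-stimulated response element, whose core was searched as GAAANNGAA on both strands of the start windows, overlaps allowed. Of the 13 falls 10 had a window and 7 of these held the core, and of the 61 other tested genes of the list 47 had a window and 25 held it. All 32851 windows hold it in 8.56%, but genes of this list are known for the element, so that share says nothing about the falls. Shown are Cxcl10 (chr5:92348840-92349139, minus strand) and Ifit3 (chr19:34583279-34583578, plus strand, where TTCNNTTTC is the core read from the other strand), with the core in capitals.
Cxcl10: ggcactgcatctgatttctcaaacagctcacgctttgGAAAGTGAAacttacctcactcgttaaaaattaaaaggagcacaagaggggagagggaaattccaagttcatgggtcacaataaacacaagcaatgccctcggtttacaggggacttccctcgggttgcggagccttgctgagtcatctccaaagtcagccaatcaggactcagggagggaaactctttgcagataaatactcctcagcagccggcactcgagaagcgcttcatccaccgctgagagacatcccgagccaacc
Ifit3: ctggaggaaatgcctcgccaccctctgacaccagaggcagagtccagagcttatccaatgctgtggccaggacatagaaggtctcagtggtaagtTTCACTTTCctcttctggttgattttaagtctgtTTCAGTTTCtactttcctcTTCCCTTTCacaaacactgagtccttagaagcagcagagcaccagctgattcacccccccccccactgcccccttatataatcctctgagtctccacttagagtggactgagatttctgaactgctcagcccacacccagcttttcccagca
A match is a stretch of letters and not a measured binding site.

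Guidance and growth signals held further falls. Of 40 ephrins, semaphorins, plexins and related genes 10 fell and 0 rose (median -0.54), among them the ephrin receptor Ephb3 (ratio 20.1, 10.7 to 42.6), the netrin Ntn4 (log2 -3.64), Sema3g (-3.60) and the semaphorin receptor Plxnb1 (-3.23). Of 23 Wnt pathway genes 5 fell (median -0.27). Rnf43, a ubiquitin ligase that removes Wnt receptors from the surface, was at 9.27, 10.3, 10.1 and 9.46 TPM in X2-PDPN and at 0.0991, 0.109, 0.0538 and 0.103 TPM in CCR7-PDPN cells (log2 -6.71 ± 0.15 SE), and the ligand Wnt6 fell by 3.52, while Wnt11 was near absence (ratio 21.9, 10.4 to 55.3). X2 cells had 0.249 TPM of Wnt11. Of 33 genes of the TGF-beta, BMP and activin pathway 5 fell and 1 rose. Bmp7 was at 0.302 ± 0.149 against 5.96 ± 0.276 TPM (log2 -4.22), and the receptor Acvrl1 (-2.74), Gdf5 (-2.23) and Tgfb2 (-2.20) fell as well. Among growth factors and tyrosine kinase receptors 5 of 43 fell and 1 rose (Fgf21), with the EGF receptor ligands Areg (-1.80) and Ereg (-1.61) and the receptors Mst1r (-2.23) and Fgfr3 (-1.68) lower.

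Genes that couple CCR7 to the cell interior were described as a list of 26 G proteins, arrestins, receptor kinases and regulators of G-protein signalling. In this list 5 fell and 0 rose, while the median was 0.02. Rgs16, which shortens signalling through Gi proteins, went from 15.7 ± 1.23 to 3.75 ± 0.388 TPM (log2 -2.02 ± 0.10 SE), the G-protein gamma subunit Gng11 fell by 2.69, and the receptor kinase Grk3 by 2.69 from a mean of 0.186 TPM. None of 12 binding partners and linkers of PDPN passed the rule, the most abundant being Cd9 at 972 ± 15.6 against 1039 ± 39.2 TPM.

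Of 24 muscle contraction genes 5 fell and 1 rose, Mylk being the rise, while smooth muscle actin Acta2 went from 105, 101, 101 and 102 TPM to 24.1, 23.1, 25.2 and 25.1 TPM (log2 -2.04 ± 0.04 SE) and Actg2 from 24.02 ± 1.61 to 3.45 ± 0.487 TPM (log2 -2.77). Acta2 was at 56.7 TPM in X2 cells, between the sorted populations, and Actg2 at 3.50 TPM, near its CCR7-PDPN level. Of 24 mesenchymal markers 5 fell and 0 rose, among them Prrx1, Acta2, Mmp2 and S100a4, and of 18 epithelial markers 3 fell and 0 rose, of which Krt80 (-1.24) changed most.

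HOX genes (18 tested), the Notch pathway (20) and the PDPN partners held 0 rises and 0 falls by the edgeR test with its fold limit, and by adjusted p alone 2, 4 and 6 of their members were higher and 7, 10 and 3 lower. The cell cycle list (52 tested) had 2 rises, Cdt1 and Gins2 (log2 1.38), and cholesterol synthesis (26 tested, median 0.12) had 1, Mvd, all within the raised block. By adjusted p alone 13 cell cycle genes were higher and 17 lower, and 15 cholesterol synthesis genes were higher and 6 lower, where 31.2% and 32.0% of all tested genes were. Of 17 apoptosis regulators 1 fell, the p53 target Pmaip1 or Noxa (2.93 to 0.288 TPM, log2 -3.29).

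Markers of other cells were looked at in the same libraries. Of 20 white blood cell markers 5 were tested, and Lyz2, Cd68 (63.0 against 26.0 TPM) and Itgax fell, although Itgax lay at 0.297 TPM or less and fell short of the fold limit without CCR7-PDPN library 4 (-0.95) or X2-PDPN library 2 (-0.99). The markers summed to 80.8 to 93.7 TPM in X2-PDPN and 32.5 to 40.2 TPM in CCR7-PDPN libraries. Lyz2 and Cd68 were at 21.4 and 136 TPM in X2 cells. Of 13 fibroblast and fat cell markers 5 were tested and 3 fell (Fabp4, Pi16 and Col1a1), with sums of 83.7 to 89.0 TPM in X2-PDPN and 67.3 to 71.0 TPM in CCR7-PDPN libraries. The 5 tested endothelial markers summed to 1.46 to 1.88 TPM in X2-PDPN and 1.62 to 1.76 TPM in CCR7-PDPN libraries. Of them Cdh5, in the raised block, rose (log2 2.44) and Esam fell (log2 -1.32), both from low levels. The part of other cells in the results above was not tested.

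Set beside X2 cells of the same batch, most changed genes had X2 on the X2-PDPN side. Of the 198 rises outside the block, X2 was nearer in log2 CPM to X2-PDPN for 157 and to CCR7-PDPN for 41. Of the 847 falls it was nearer to X2-PDPN for 571 and to CCR7-PDPN for 276. Among the falls 381 had X2 within 1 log2 unit of X2-PDPN alone, as Loxl2 and Tbx4 did, and 153 had it within 1 unit of CCR7-PDPN alone, as Tgfbi did. These counts reuse the 8 libraries that define the changes and are a description.

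CCR7 against X2 in batch 1 compares the same transduction in cells sorted for the absence of PDPN with the vector control, and shares no library with the comparison above, though the populations share ancestors. Of 13261 genes tested there 437 rose (3.3%) and 422 fell (3.18%). Of the 191 rises outside the block that were tested in batch 1, 97 rose there too (50.8%) and 0 fell, and of 712 falls 283 fell there too (39.7%) and 9 rose. Counted the other way, 31.5% of the 308 batch 1 rises and 69.9% of the 405 batch 1 falls outside the block were called in the same direction with PDPN. Loxl2, Rnf43 and Glud1 fell in both comparisons, with batch 1 changes of -9.05, -7.15 and -1.77. The median batch 1 change was 1.02 for the rises and -0.81 for the falls, against 1.38 and -1.54 for the same genes between the PDPN-positive populations. These genes were chosen by their change between the PDPN-positive populations, so smaller medians in batch 1 are partly built in.

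The difference between both CCR7 effects was tested gene by gene over all 24 libraries, each effect taken within its own batch, and 687 of 13690 genes passed (5.02%). Among the 847 falls outside the block, the difference passed downwards for 328 and upwards for 12. Among the 198 rises it passed upwards for 32 and downwards for 6. The libraries that define the falls and rises also enter this difference, so the directions of these counts are partly built in. For Il7 (difference -3.42 ± 0.25 SE; adjusted p = 1.6e-13), Tbx4 (-2.97), Thbs2 (-5.49) and Tgfbi (-3.25) the change between PDPN-positive cells lay below that in batch 1. Col9a1 (difference -5.58) rose by 2.17 with CCR7 in batch 1 and fell by 3.41 between PDPN-positive cells. For Loxl2 (0.71 ± 0.50 SE), Rnf43 (0.44) and Col6a3 (0.37) the difference did not pass.

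**Figure D5:**
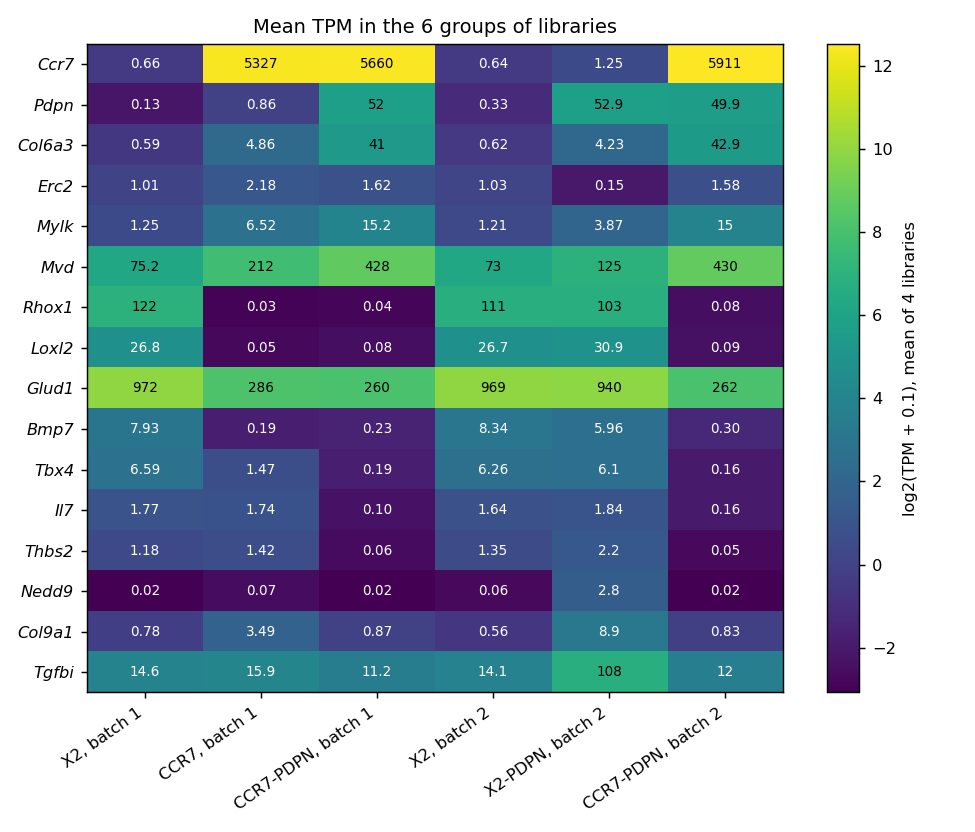
Mean TPM (printed, with colour for log2 of TPM + 0.1) of 16 genes in the 6 groups of 4 libraries. Rhox1, Loxl2, Glud1 and Bmp7 are low in all 3 groups with CCR7, Il7 is low in both groups of CCR7-PDPN libraries, and Nedd9, Col9a1 and Tgfbi are highest in X2-PDPN.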

How the data were processed

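RNA-seq libraries (TruSeq Stranded mRNA, single-end, read length 75 bases, NextSeq 550) of 24 samples in 2 batches were read as the tables the authors deposited, which hold raw read counts per gene on GRCm38 (mm10). The batch 1 table is named for featureCounts, while the aligner and the counter of batch 2 are not given in the sources used here. The tables list 13915 genes for batch 2, where every gene reaches 10 counts in 1 or more libraries, and 55471 for batch 1. Samples were grouped by their labels. Of the 13915 genes 601 were dropped by filterByExpr, and the remaining counts were scaled by TMM and tested with edgeR 4.0.16 (quasi-likelihood, R 4.3.3) on the 12 libraries of batch 2 (the X2 control included), with Benjamini-Hochberg adjustment over 13314 genes. Calls needed an adjusted p under 0.05 and a log2 change beyond 1. TPM was computed from the counts and the exonic lengths in the tables. The floor of 3 counts equals 0.0840 to 0.132 CPM. On simulated data for this comparison (13249 genes) the test called 100 of 100 genes changed by 2 and 99 of 100 changed by 1.3 on the log2 scale, and 1 unchanged gene. The changed genes were drawn from those averaging at least 30 counts, so weaker genes are not described by it. Its spread was that between libraries of a group and not between populations.

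Genes named were the largest changes among genes averaging 1 or more in log2 CPM, with groups that do not overlap, the most abundant called genes, up to 4 called members per list and near-absent genes. The members and lists were chosen with earlier results of these data known. Alternatives included other scalings, filters and tools (DESeq2 1.42.0), each library left out, and a replicate block. The replicate numbers did not pair the samples, as correlations of same-numbered deviations ran from -0.01 to 0.11 and 1 of 4 was over 0.1. Some genes and 1 list that met the rule are not reported here.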

Additional observations from a re-analysis of the deposited data

Results flagged for a closer look

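For 45 of the 112 genes named, the change with CCR7 differed between PDPN-positive cells and batch 1, against 687 of all 13690 genes tested (5.02%). The test was that of the difference itself (edgeR, adjusted p under 0.05 and a difference beyond 1 on the log2 scale). Many genes were named for large changes in libraries that enter this difference, so the higher share is partly built in. The difference was below 0 for Col9a1 (-5.58), Thbs2 (-5.49), Il7 (-3.42), Tgfbi (-3.25), Tbx4 (-2.97), Pdpn (-2.75), Gng11 (-2.51), S100a8 (-2.14), Shank2 (-2.09) and Pi16 (-2.05). It was also below 0 for Cxcl10 (-2.05), Wnt6 (-1.94), Mst1r (-1.90), Acta2 (-1.81), Plxnb1 (-1.68), Dpep1 (-1.68), Rcn3 (-1.66), Lyz2 (-1.63), Pmaip1 (-1.61), S100a14 (-1.56), Gm4316 (-1.54), Ly6a (-1.50), Prrx1 (-1.46), C1s1 (-1.45), Col1a1 (-1.43), Sema3g (-1.38), Actg2 (-1.38), S100a4 (-1.36), Ubash3b (-1.31), Cx3cl1 (-1.21) and Acvrl1 (-1.20). For Nedd9 (-8.56), Prelp (-6.44), Igfbp5 (-6.09), Wnt11 (-4.08), Magea10 (-4.03), Col15a1 (-3.68) and Ephb3 (-2.09) these are fitted values over CCR7-PDPN libraries at or near 0 counts, which depend on the prior count and give no bound, and Nedd9, Prelp, Igfbp5 and Wnt11 were not tested in batch 1. It was above 0 for Erc2 (2.27), Gm43800 (1.65), Nrap (1.47), Bmp7 (1.23), Stard8 (1.17), Oas1c (1.12) and Tmem40 (1.06). Pdpn differed between CCR7 and X2 cells of batch 1 by 2.69 on the log2 scale, at 0.855 TPM in CCR7 cells. The protein of Pdpn was the marker by which the PDPN-positive and the CCR7 populations were sorted.

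A single library stood apart from the other 3 of its group, with a gap to the nearest beyond Dixon's 95% critical share of the group's range, in 11 of 224 groups of 4 libraries looked at. Chance alone does this in about 1 of 20 groups. These were Bnip5 in CCR7-PDPN library 2 (3.65 TPM), Gdf5 in CCR7-PDPN library 1 (0.560 TPM), Gm20632 in CCR7-PDPN library 1 (7.03 TPM), Gm43800 in CCR7-PDPN library 3 (8.05 TPM), Nrap in X2-PDPN library 1 (1.21 TPM), Plat in CCR7-PDPN library 2 (2.05 TPM). The others were S100a16 in X2-PDPN library 4 (1.19 TPM), Tgfb2 in X2-PDPN library 4 (2.79 TPM), Tmem40 in X2-PDPN library 1 (3.40 TPM), Ubash3b in X2-PDPN library 2 (4.73 TPM) and Xlr4c in X2-PDPN library 4 (0.185 TPM).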

How the results depend on the processing

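Outside the raised block, falls outnumbered rises under every alternative run. A minimum of 50 counts in 4 libraries left 233 rises and 446 falls among all genes, 81 and 443 outside the block and 3 falls inside it, and gave the block a median of 1.31. A test against a log2 change of 1 (glmTreat) left 224 rises and 485 falls, of which 82 and 480 lay outside. Without the fold limit the counts were 4152 and 4259 among all genes, 3957 and 4249 outside, and 10 falls inside. Upper-quartile scaling moved the median of the block to 1.26 and that of chromosome 14 to -0.56, and no filter on low counts moved the latter to -0.53. Near absence was met by 1 and 5 genes when at most 1 count was allowed, and by 7 lower genes when at least 50 counts were asked of the other group. With 1 library left out, rises and falls ranged over 372 to 406 and 859 to 924 for all genes, 202 to 235 and 854 to 919 outside, and 165 to 173 and 5 to 5 inside. The same ranges were 2 to 3 and 11 to 15 for near absence, 440 to 490 and 422 to 481 for batch 1, 1.27 to 1.28 for the median of the block and -0.54 to -0.53 for that of chromosome 14. DESeq2 gave 240 rises and 954 falls outside. With the replicate number as a block the counts were 199 and 850 outside, 368 and 855 among all genes and 169 and 5 inside. Setting chromosomes 8 and 14 apart (188 and 741) was chosen after seeing the data. Of 2105 values of the named genes under alternatives 2090 kept their call, 14 lost it, 1 gained it and 0 reversed. Many of these genes were named for large changes in the same libraries, so kept calls were likely from the start. The cause of the moved counts, medians and calls was not tested. Low counts limit what can be said of genes under 1 TPM.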
